A study of Mus musculus with 16 samples.

Results

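Apolipoproteins and the proteins that load them with lipid decide how the liver exports fat, and 9 of their genes were followed through the liver transcriptome of obese mice given a glucagon analogue. They were *Apob*, *Mttp*, *Tm6sf2*, *Apoa1*, *Apoa4*, *Apoa5*, *Apoc3*, *Apoe* and *Lipc*, chosen by name for their roles in making and remodelling very-low-density lipoprotein (VLDL). The choice set no threshold on their values, but it was made with earlier results of these data known. All 9 were among the 55487 genes of the table, and all 9 had a mean above 1 TPM, a measure of transcript abundance corrected for length and library size, which was the lowest level at which a gene was tested. Hepatocytes build a VLDL particle around 1 molecule of apolipoprotein B (*Apob*). Microsomal triglyceride transfer protein (*Mttp*) lipidates it in the endoplasmic reticulum, and the membrane protein encoded by *Tm6sf2* takes part in adding the bulk of the triglyceride. Other apolipoproteins then set the particle's fate, since apolipoprotein C-III (*Apoc3*) slows its lipolysis and clearance, apolipoprotein A-V (*Apoa5*) favours lipolysis by lipoprotein lipase, and apolipoprotein E (*Apoe*) is a ligand for the hepatic receptors that take up remnants. Glucagon is known to lower the secretion of triglyceride by the liver.

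The study asked how a low dose of G108, a long-acting analogue of glucagon that activates the glucagon receptor, acts on the liver when dietary protein is raised. Liver RNA came from 16 male C57BL6/J mice that were 10 weeks old and lean when a 60 kcal% high fat diet was started, and that had been fed it for 8 weeks before the study, according to the sample records. They were then housed singly and moved to a fat-rich diet whose protein was either standard (SP) or high (HP), and received vehicle or 2.5 nmol/kg of G108 under the skin once a day for 22 days. The records put tissue collection on day 25 after a 4 h fast. The published methods differ from the records, with a younger age, a shorter first diet, an earlier collection day and SP or HP feeding begun ahead of the injections. Vehicle SP, G108 SP, vehicle HP and G108 HP groups held 4 mice each with 1 library per mouse, so every group had fat-rich food and no lean or chow-fed mice were compared. Only males were sequenced and the diets differed in protein within a high fat background, which limits what the groups model. Where values of the 4 groups follow one another, their order is vehicle SP, vehicle HP, then G108 SP and last G108 HP.

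Libraries held 27.8 to 45.03 M reads assigned to genes, as recovered from the TPM steps, with the lower depths in the G108 groups. At these depths the member with the fewest reads, *Tm6sf2*, had 389 to 1177 reads per library and *Apoe* had 437233 to 692477, so counting error weighs most on *Tm6sf2*. The tissue label fitted its markers, with 8 hepatocyte genes summing to 12031 to 51188 TPM per library. The 8 enterocyte markers, which matter because intestine also makes *Apob*, *Apoa1* and *Apoa4*, included *Alpi* and *Sis* at 0 in every library, and all but *Fabp2* had a mean under 1 TPM. In bulk tissue, fewer cells of a type and less RNA per cell cannot be told apart. What did move with the groups was library make-up. The major urinary protein (Mup) genes took 42.6 to 49.7% of all TPM in vehicle SP, 35.7 to 44.9% in vehicle HP, 18.3 to 23.0% in G108 SP and 18.2 to 29.6% in G108 HP. Genes of the mitochondrial genome took 13.8 to 23.96%, 15.2 to 20.7%, 16.6 to 21.0% and 21.0 to 37.3% in the same order. Because TPM of a library sum to a fixed total, each result below is given on TPM as deposited and again after median-of-ratios scaling, which divides each library by the median ratio of its genes to their geometric mean over libraries, and the latter values are called scaled TPM. The scaling factors were 0.68 to 0.97, 0.84 to 1.07, 1.18 to 1.54 and 0.84 to 1.24 in the 4 groups.

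The 9 transcripts spanned a wide range of abundance on the TPM scale, which corrects for transcript length. *Apoe* was the most abundant with a mean of 9579.6 TPM over the 16 libraries, rank 29 in the table, followed by *Apoa1* with 4915 TPM, rank 46, and *Apoc3* with 1823 TPM, rank 67. *Apoa5* averaged 453 TPM, and *Apoa4* and *Apob* followed with 136 TPM each. *Apoa4* and *Apob* could not be ordered against each other, because the mice of each ranged from 39.2 to 271 and from 52.0 to 228 TPM. *Lipc*, hepatic lipase, averaged 46.2 TPM, *Mttp* 22.2 TPM and *Tm6sf2* 16.2 TPM. The ranges of *Mttp* and *Tm6sf2* over the libraries overlapped as well, at 11.7 to 35.4 and 7.69 to 26.4 TPM. Within a library, the ratio of *Tm6sf2* to *Mttp* was at most 0.905 in vehicle SP, 0.718 in vehicle HP and 0.920 in G108 SP. It was above 1 only in G108 HP mouse 3, at 1.15. Of the members' summed TPM, 93.7 to 96.8% came from *Apoe*, *Apoa1* and *Apoc3*, so transcripts of secreted coat proteins far outnumbered those of the assembly machinery.

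**Figure D1:**
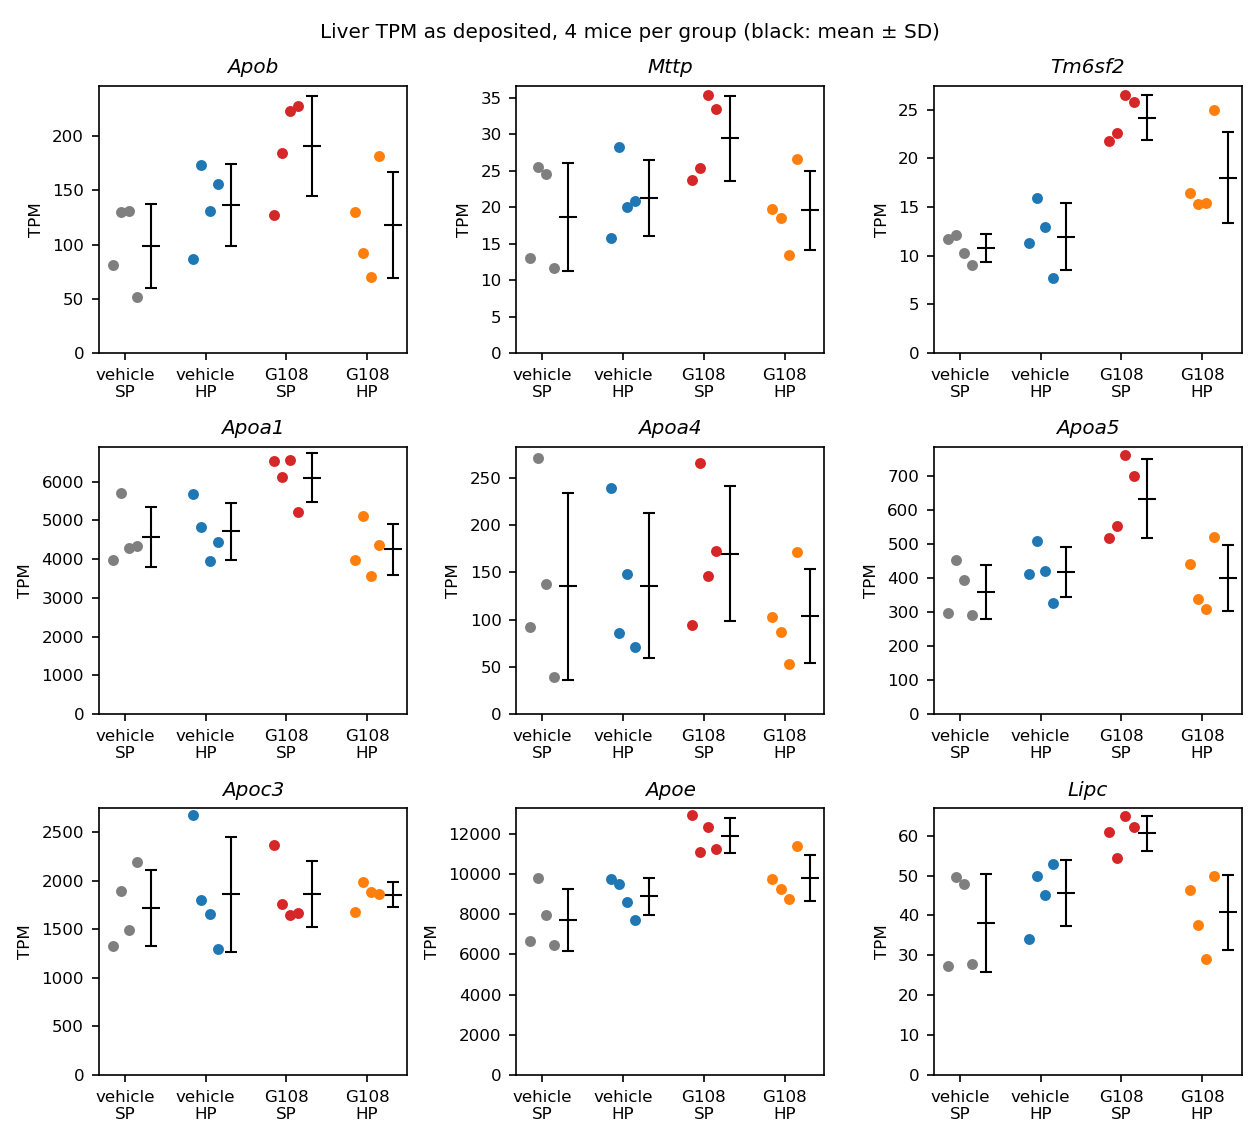
TPM as deposited (vertical axes, linear from 0) of each of the 9 genes in the 4 mice of each group, with the group mean ± SD in black. The G108 SP mice sit above all vehicle SP mice for Tm6sf2, Apoa5, Apoe and Lipc, whereas the 4 groups overlap for Apoa4 and Apoc3.

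On SP, G108 was accompanied by higher TPM of 7 of the 9 genes, namely *Apob*, *Mttp*, *Tm6sf2*, *Apoa1*, *Apoa5*, *Apoe* and *Lipc*. This count has to be read against the whole table, in which 77% of the 11839 genes tested were called higher in the same contrast (limma, Benjamini-Hochberg adjusted p under 0.05). The median log2 fold change was 0.69 over the members and 0.60 over all genes. Groups that did not overlap were seen for 4 of the 9 genes, against 56% of all genes. After median-of-ratios scaling, 0 of the 9 passed the test in either direction, against 2.72% of all genes, and voom on recovered reads called 0. An unadjusted p under 0.05 was seen for 2 members and for 2098 of the 11839 genes. The scaled median was −0.05 for the members and −0.01 for all genes, and 3 of the 9 had a fold change above 0. The summed hepatocyte markers moved the same way on TPM, from 12031 to 29269 in vehicle SP and 28899.5 to 51188 in G108 SP, ranges that overlapped, and their part in the result was not tested.

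**Figure D2:**
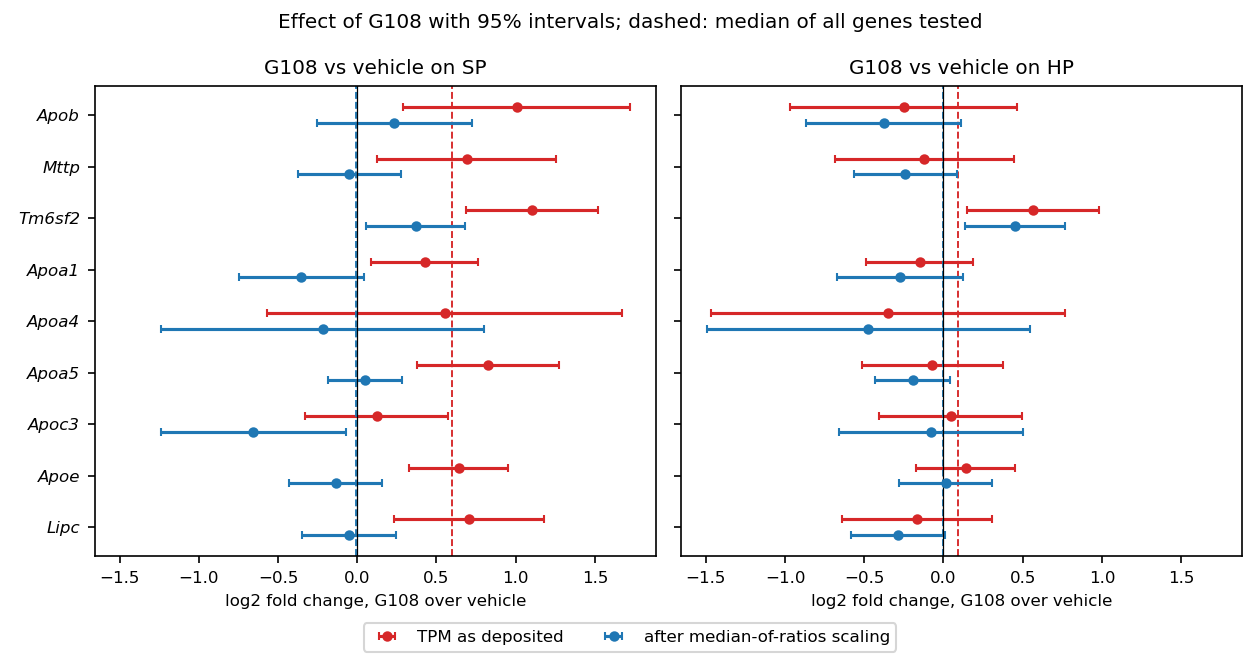
Log2 fold change of G108 over vehicle (horizontal axes) with 95% intervals for each gene, on SP (left) and HP (right), from TPM as deposited (red) and after median-of-ratios scaling (blue), with the median of all genes tested as dashed lines. On SP the red values lie around the median of all genes of 0.60 and the blue values around 0, and Tm6sf2 lies above its dashed line on both diets.

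*Tm6sf2* (chr8:70072924-70080066, plus strand, GRCm38) was the member with the highest fold change under G108 on both diets and both scales. The values of the 4 mice were 11.7, 12.1, 10.2 and 8.99 TPM in vehicle SP and 11.3, 15.96, 12.9 and 7.69 in vehicle HP. The G108 mice had 21.8, 22.6, 26.4 and 25.8 TPM on SP and 16.4, 15.3, 15.4 and 24.9 on HP. The G108 SP values were well above those of vehicle SP with no overlap, whereas on HP the lowest G108 values, near 15, lay under the highest vehicle value of 15.96. The group means were 10.8 ± 1.44, 11.96 ± 3.44, 24.2 ± 2.31 and 18.02 ± 4.65 TPM (SD, n = 4). The log2 fold change of G108 over vehicle was 1.10 (SE 0.20, adjusted p = 8.40e-04) on SP and 0.57 (SE 0.20, adjusted p = 0.228) on HP by limma, so the call was made on SP alone. The interaction of G108 and diet was −0.53 (SE 0.28, adjusted p = 0.13), and the effect was therefore not shown to differ between diets.

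Scaling narrowed the difference in *Tm6sf2* and also brought both diets together. The values of the 4 mice were 16.9, 12.5, 11.5 and 13.2 scaled TPM in vehicle SP and 13.5, 14.9, 14.1 and 8.78 in vehicle HP. The G108 mice had 18.5, 17.1, 17.2 and 17.6 scaled TPM on SP and 16.01, 16.1, 18.3 and 20.1 on HP. On both diets every G108 mouse lay above every vehicle mouse of that diet, a separation shown by 4.52% of all genes on SP and 4.2% on HP. No other member separated on either diet after scaling. The scaled log2 fold change was 0.37 (SE 0.15, adjusted p = 0.215) on SP and 0.45 (SE 0.15, adjusted p = 0.197) on HP, and neither passed the test alone. Averaged over diets, a contrast added after the data were seen, it was 0.41 (SE 0.10, adjusted p = 0.0305) after scaling and 0.83 (SE 0.14, adjusted p = 6.03e-04) on TPM, against 5.81% and 62% of all genes called. The scaled call was not stable, as the adjusted p was 0.0257 by voom, 0.0668 with mouse number as a block, and 0.0123 to 0.0672 with 1 library left out, when 9 of 16 fits kept it. The TPM ratio of *Tm6sf2* to *Mttp*, which needs no scaling between libraries, was 0.642 ± 0.234, 0.574 ± 0.150, 0.833 ± 0.087 and 0.937 ± 0.152 in the 4 groups (SD, n = 4, not tested). The ratio of *Tm6sf2* to *Apob* was 0.122 ± 0.044, 0.093 ± 0.033, 0.131 ± 0.026 and 0.163 ± 0.042 (SD, n = 4, not tested). On SP, G108 and vehicle mice overlapped in both ratios, and on HP only in the ratio to *Apob*. The scaled level of *Tm6sf2* had r of 0.46 with the slope of each library's log2 levels on gene GC content. *Mttp* had −0.58 and *Apob* −0.59. The part of base composition in these ratios and in the scaled values of *Tm6sf2* was not tested.

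**Figure D3:**
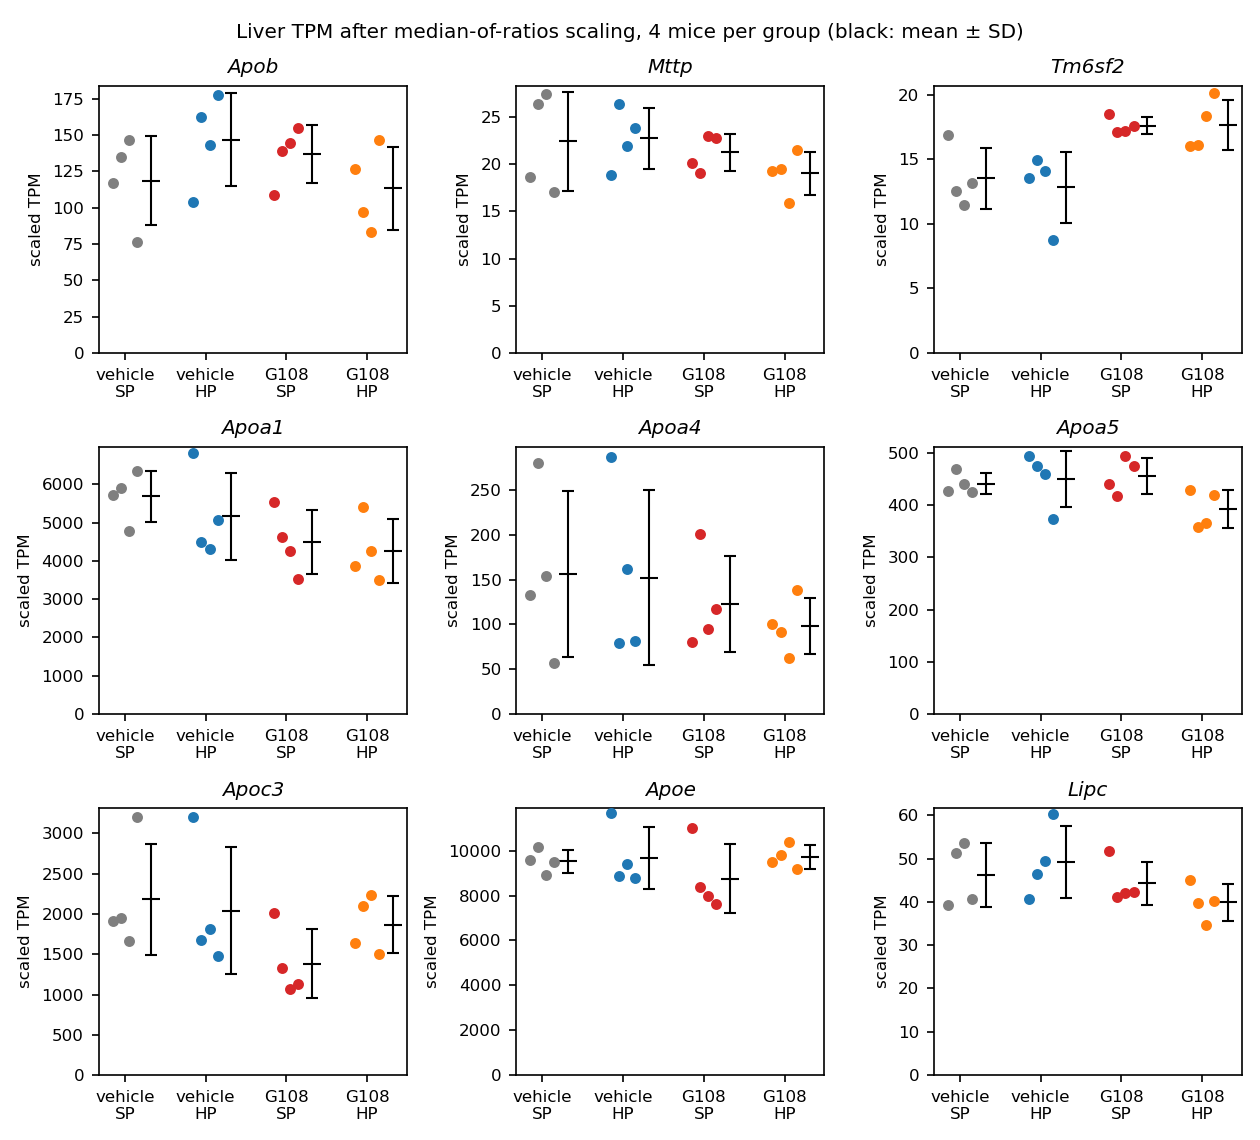
TPM after median-of-ratios scaling (vertical axes, linear from 0) of each of the 9 genes in the 4 mice of each group, with the group mean ± SD in black. Tm6sf2 is the only gene whose G108 mice lie above all vehicle mice of the same diet on both SP and HP, and Apoa5 shows the tightest groups.

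*Apob* (chr12:7977648-8016835, plus strand) and *Mttp* (chr3:138089854-138144968, minus strand), which act on the same nascent particle, shared their pattern. For *Apob* the values of the 4 mice were 81.1, 130.2, 131 and 52.01 TPM in vehicle SP and 86.7, 174, 131 and 156 in vehicle HP. With G108 the values were 128, 185, 223 and 228 TPM on SP and 129.7, 92.01, 69.8 and 182 on HP. Groups overlapped in every comparison, and vehicle SP mouse 4 and G108 HP mouse 3 had the lowest values of their diets. The log2 fold change on SP was 1.01 (SE 0.34, adjusted p = 0.0144) for *Apob* and 0.69 (SE 0.27, adjusted p = 0.0278) for *Mttp*. On HP it was −0.25 (SE 0.34, adjusted p = 0.898) and −0.12 (SE 0.27, adjusted p = 0.956). After scaling the SP values became 0.23 (SE 0.23, adjusted p = 0.582) for *Apob* and −0.05 (SE 0.15, adjusted p = 0.868) for *Mttp*, with 95% intervals of −0.25 to 0.72 and −0.38 to 0.28, so changes of that width in either direction were not resolved. *Mttp* ranged from 11.7 to 25.5 TPM in vehicle SP, 15.7 to 28.2 in vehicle HP, 23.7 to 35.4 in G108 SP and 13.4 to 26.6 in G108 HP. Without vehicle SP mouse 4 the SP call of *Apob* was lost (adjusted p = 0.0525), as was that of *Mttp* (adjusted p = 0.0939), which kept its call in 12 of 16 fits that left out 1 library. Exons of *Mttp* overlap those of *Gm43691* and *Trmt10a* on the other strand, and the strand setting of the counting was not given. It is therefore not known whether reads of *Gm43691*, listed at 1.87 to 19.7 TPM, were kept apart from those of *Mttp*.

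Over the 16 libraries, scaled log2 levels of *Apob* and *Mttp* had a Pearson r of 0.80 and a Spearman rho of 0.79, and r was 0.83 for deviations from the group means, so the likeness was one between mice within groups. Without the 2 libraries farthest from the median of *Apob*, r was 0.67. *Apob* ran against *Apoc3* (r = −0.78, rho = −0.79, within groups −0.93), and the abundant *Apoc3* and *Apoe* ran together (r = 0.83, rho = 0.90, within groups 0.82). The TPM ratio of *Apoc3* to *Apob* accordingly ran from 7.30 to 42.1 over the mice. Of 36 pairs of members these 3 are described because they had the largest r in size on the scaled values. On TPM as deposited, r was 0.95 for *Apob* with *Mttp*, −0.34 for *Apob* with *Apoc3* and 0.34 for *Apoc3* with *Apoe*. The size of r thus depended on the scale. The long *Apob* and *Mttp* transcripts have exon lengths of 13934 and 6206 bases and GC contents of 43.5% and 45.9%, and *Apoc3* has 1014 bases and 56.0%. The scaled levels of *Apob* and *Mttp* had r of −0.59 and −0.58 with the slope of each library's log2 levels on gene GC content, and *Apoc3* had 0.23. The part of base composition in these likenesses was not tested.

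**Figure D4:**
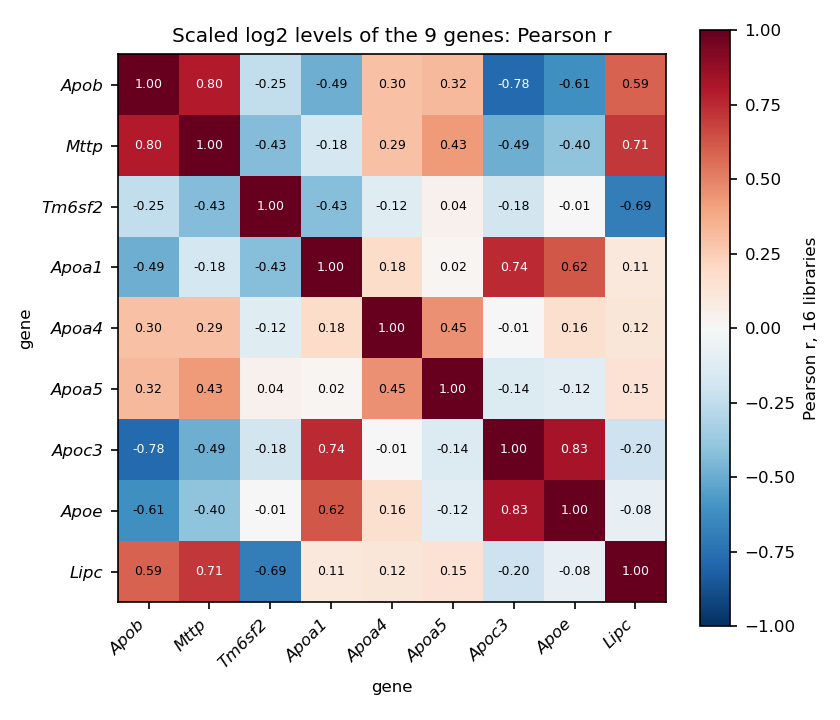
Pearson r between the scaled log2 levels of each pair of the 9 genes (both axes) over the 16 libraries, on a colour scale from −1 to 1. Apob and Mttp (0.80) and Apoc3 and Apoe (0.83) run together, and Apob and Apoc3 run against each other (−0.78).

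The windows around the annotated starts of *Apob* and *Mttp* are shown because the pair varied together. Those of *Apoa1* and *Apoa4*, which lie on chromosome 9 with *Apoc3* between them, are shown as a pair with a low correlation (r = 0.18, scaled). *Apoa1* and *Apoa5* of the same region had a lower one, with r = 0.02. They are the 250 bases before and 50 after a RefSeq start on GRCm38.p6, read 5′ to 3′ on the strand of the gene, and were found for 7 of the 9 members. The windows lie at chr12:7977427-7977726 (plus strand), chr3:138143369-138143668 (minus strand), chr9:46228380-46228679 (plus strand) and chr9:46240594-46240893 (plus strand). The *Mttp* window lies wholly inside the annotated gene, whose 5′ end is at chr3:138144968. Whether *Mttp* is transcribed from this start in these livers was not tested. Capitals mark matches to 3 short motifs searched on both strands.
Apob: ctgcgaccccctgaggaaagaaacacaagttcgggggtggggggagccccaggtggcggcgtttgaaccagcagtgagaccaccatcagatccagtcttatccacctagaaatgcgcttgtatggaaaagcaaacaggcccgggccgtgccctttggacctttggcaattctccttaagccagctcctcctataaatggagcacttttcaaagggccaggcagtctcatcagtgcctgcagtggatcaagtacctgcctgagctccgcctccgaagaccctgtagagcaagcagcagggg
Mttp: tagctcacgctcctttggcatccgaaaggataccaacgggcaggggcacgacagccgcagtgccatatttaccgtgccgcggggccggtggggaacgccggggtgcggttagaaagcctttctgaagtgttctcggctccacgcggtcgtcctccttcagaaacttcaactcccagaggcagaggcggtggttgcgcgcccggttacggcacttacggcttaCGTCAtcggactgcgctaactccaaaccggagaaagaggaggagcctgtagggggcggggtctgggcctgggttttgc
Apoa1: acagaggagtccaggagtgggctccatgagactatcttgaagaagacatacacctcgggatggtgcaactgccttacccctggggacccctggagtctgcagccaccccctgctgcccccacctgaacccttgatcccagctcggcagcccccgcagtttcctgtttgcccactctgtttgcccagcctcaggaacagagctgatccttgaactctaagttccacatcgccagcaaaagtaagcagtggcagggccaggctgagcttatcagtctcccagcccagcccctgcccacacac
Apoa4: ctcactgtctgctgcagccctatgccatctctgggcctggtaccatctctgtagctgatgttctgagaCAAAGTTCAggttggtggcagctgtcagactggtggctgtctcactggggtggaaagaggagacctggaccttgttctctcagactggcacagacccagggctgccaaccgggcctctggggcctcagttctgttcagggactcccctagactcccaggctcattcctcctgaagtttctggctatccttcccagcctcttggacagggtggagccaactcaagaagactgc
The motifs were TGACG, the core of the cAMP response element that glucagon signalling acts through, CAAAGTNCA, a form of the site of the liver factor HNF4A, and GTAAACA, the forkhead site bound by FOXO1 and FOXA2. Of 32544 windows in the table, 20.9% held the first, 1.43% the second and 3.66% the third. *Mttp* held TGACG on the opposite strand, so that it reads CGTCA above, at base 223 of the window, and *Apoa4* held CAAAGTTCA at base 69. None of the 3 was found in the windows shown for *Apob* and *Apoa1*. A match of letters is a description and not a measured binding site.

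*Apoa1*, *Apoc3*, *Apoa4* and *Apoa5* lie within 43340 bases of chromosome 9, in that order, at chr9:46228580-46230466, chr9:46232933-46235636, chr9:46240696-46243459 and chr9:46268633-46271919. *Apoc3* is on the minus strand and the others are on the plus strand, with gaps of 2466, 5059 and 25173 bases. The closest pair, *Apoa1* and *Apoc3*, varied together in scaled log2 level over the 16 libraries (r = 0.74, rho = 0.65, within groups 0.80, and r = 0.55 without the 2 libraries farthest from the median of *Apoa1*). On TPM as deposited their r was 0.41. *Apoa5* was the steadiest member after scaling, with a within-group SD of 0.129 on the log2 scale, smaller than that of all but 18.5% of genes. *Apoa4* was the most variable, with an SD of 0.739 against 0.205 for the median gene, and 97.3% of genes varied less.

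*Apoa1*, the main protein of high-density lipoprotein, had 3969.8, 5705, 4275 and 4344 TPM in the 4 mice of vehicle SP and 5688, 4819, 3949 and 4438 in vehicle HP. Under G108 it was 6525, 6119, 6571 and 5205 TPM on SP and 3975, 5125, 3576 and 4355 on HP. On SP, 1 vehicle mouse reached the G108 range, and on HP the groups overlapped. The log2 fold change was 0.42 (SE 0.16, adjusted p = 0.0247) on SP and −0.15 (SE 0.16, adjusted p = 0.84) on HP. After scaling both were below 0, at −0.35 (SE 0.19, adjusted p = 0.327) and −0.27 (SE 0.19, adjusted p = 0.663), so the sign on SP depended on the scale and neither scaled value passed the test. The SP call on TPM was kept in 12 of 16 fits that left out 1 library and weakest without vehicle SP mouse 1 (adjusted p = 0.0743). In the average over diets the scaled value was −0.31 (SE 0.13, adjusted p = 0.22), with an unadjusted p of 0.0304.

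*Apoc3* was not called on SP in TPM. The values of the 4 mice were 1323, 1891, 1488 and 2187 TPM in vehicle SP and 2676, 1800.0, 1659.9 and 1291 in vehicle HP. In G108 mice the values were 2365, 1764, 1645 and 1663 TPM on SP and 1681, 1989, 1885 and 1859.5 on HP. The 4 groups overlapped, with mouse 1 of vehicle HP and mouse 1 of G108 SP highest in their groups. Its log2 fold change on SP was 0.12 (SE 0.21, adjusted p = 0.598), the smallest of the 9. After scaling it was −0.66 (SE 0.27, adjusted p = 0.232) on SP, the lowest value of the 9, with an unadjusted p of 0.0299 that did not survive adjustment over all genes. On HP the scaled value was −0.08 (SE 0.27, adjusted p = 0.951), and the interaction of G108 and diet was 0.58 (SE 0.39, adjusted p = 0.578). The scaled SP value was −0.46 without vehicle SP mouse 4 and −0.85 without G108 SP mouse 1, the extremes among the 16 libraries left out in turn.

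*Apoa5* reached 519, 552, 761 and 699 TPM in the G108 SP mice, all above the 291 to 454 TPM of vehicle SP. In vehicle HP it was 327 to 509 TPM and in G108 HP 307 to 519.6 TPM, which overlapped. The log2 fold change was 0.83 (SE 0.21, adjusted p = 0.00385) on SP and −0.07 (SE 0.21, adjusted p = 0.972) on HP. After scaling the SP value was 0.05 (SE 0.11, 95% interval −0.19 to 0.28, adjusted p = 0.816), the most closely bounded estimate among the members, and that on HP was −0.19 (SE 0.11, adjusted p = 0.56). An antisense transcript, *Gm47544*, overlaps its exons and was listed at 257 to 290.3% of the TPM of *Apoa5* in every library. Since the strand setting of the counting was not given, it is not known whether reads of the pair were kept apart.

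*Apoa4*, which is carried on chylomicrons, VLDL and HDL, had 92.3, 271, 138 and 39.2 TPM in the 4 mice of vehicle SP and 239, 85.4, 148 and 71.3 in vehicle HP. In G108 mice it was 94.8, 266, 147 and 172 TPM on SP and 103, 86.8, 52.8 and 171 on HP. Each group spanned at least a 2.80-fold range, and vehicle SP spanned 6.92-fold. The log2 fold change was 0.55 (SE 0.53, adjusted p = 0.338) on SP and −0.35 (SE 0.53, adjusted p = 0.916) on HP, and −0.22 (SE 0.48, adjusted p = 0.813) and −0.48 (SE 0.48, adjusted p = 0.806) after scaling. The 95% interval on SP, −0.57 to 1.67 on TPM, ran from a fall to a rise of more than 2-fold. *Gm10680*, antisense to *Apoa4*, was listed at 191 to 244% of its TPM and rose and fell with it (r = 0.99). *Gm47528* overlaps *Apoa4* as well, and without the strand setting it is not known whether reads of these genes were kept apart.

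*Apoe* (chr7:19696109-19699188, minus strand) carried the largest share of the set. The values of the 4 mice were 6658, 9825, 7962 and 6480.0 TPM in vehicle SP and 9761, 9480.0, 8605 and 7687 in vehicle HP. Mice given G108 had 12945, 11113, 12333 and 11248 TPM on SP and 9739.6, 9277, 8760.5 and 11401 on HP. All G108 SP mice exceeded all vehicle SP mice, while on HP the groups overlapped. The log2 fold change was 0.64 (SE 0.15, adjusted p = 0.00231) on SP, a 1.56-fold difference, and 0.14 (SE 0.15, adjusted p = 0.835) on HP. After scaling it was −0.14 (SE 0.14, adjusted p = 0.595) and 0.01 (SE 0.14, adjusted p = 0.981). *Lipc* (chr9:70798128-70952226, minus strand), whose product hydrolyses triglyceride and phospholipid of remnants and HDL at the liver surface, had 60.9, 54.5, 64.8 and 62.1 TPM in the G108 SP mice, all above the 27.2 to 49.6 TPM of vehicle SP. It was 34.1 to 52.98 TPM in vehicle HP and 29.1 to 49.99 TPM in G108 HP. Its log2 fold change was 0.71 (SE 0.22, adjusted p = 0.0104) on SP and −0.16 (SE 0.22, adjusted p = 0.9) on HP, and −0.05 (SE 0.14, adjusted p = 0.847) and −0.29 (SE 0.14, adjusted p = 0.455) after scaling.

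On HP, G108 changed 0 of the 9 genes by the test on either scale, against 1.11% of all genes on TPM and 1.22% after scaling. *Tm6sf2* was the 1 member with an unadjusted p under 0.05 on both scales, and voom also called 0. In the fit with mouse number as a block, 1248 of 11839 genes had such a p on TPM and 1233 after scaling. Groups that did not overlap on TPM were seen for 0 members and 8.88% of genes. The median log2 fold change of the members was −0.12 on TPM and −0.24 after scaling, against 0.09 and 0.00 for all genes. In the average over diets, 3 members were called higher on TPM (*Tm6sf2*, *Apoa5* and *Apoe*), against 61% of all genes, and after scaling 8 of the 9 had a value below 0 and *Tm6sf2* alone was called, against 5.81%.

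Raising dietary protein in vehicle mice called 0 of the 9 genes, with 0 at an unadjusted p under 0.05, and 0% of all genes were called. The log2 fold changes of HP over SP ran from 0.05 for *Apoa1* to 0.52 for *Apob*, whose 95% interval was −0.20 to 1.23. After scaling they ran from −0.15 for *Apoa1* to 0.32 for *Apob*, with 5 of the 9 above 0, a median of 0.01 and 0 called. On TPM, groups that did not overlap were found for 0 members, against 1.47% of genes. In G108 mice, HP was accompanied by lower TPM of 8 of the 9 genes, but 0 passed the test by limma (6 at an unadjusted p under 0.05) and 0% of all genes were called. *Apoa1*, at −0.53 (SE 0.16, adjusted p = 0.0728), and *Lipc*, at −0.59 (SE 0.22, adjusted p = 0.0824), had groups that did not overlap, which held for 20.5% of genes in that direction. After scaling these were −0.08 (SE 0.19, adjusted p = 0.926) and −0.15 (SE 0.14, adjusted p = 0.858), and 0 members had an unadjusted p under 0.05.

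The interaction, which asks whether G108 acted differently on the diets, was below 0 for all 9 genes on TPM, with a median of −0.81 against −0.49 for all genes tested. By limma 0 members and 0% of all genes were called, and 6 members had an unadjusted p under 0.05. Without the filter, which takes in genes below 1 TPM, 7287 of 32076 genes had such a p. The lowest adjusted p was 0.0799, reached by *Apob* at −1.26, *Apoa5* at −0.90 and *Lipc* at −0.87. After scaling 4 of the 9 were above 0, the members' median was −0.19 and 0 had an unadjusted p under 0.05. These counts of 0 on TPM rested on several libraries. Without G108 HP mouse 4, 6 members were called for the interaction, against 43.9% of all genes, and 6 for HP over SP with G108, against 42.6%. For the interaction 5 members were called without vehicle SP mouse 2 (29.3% of genes) and 2 without G108 SP mouse 1 (33.4%). For HP over SP with G108, 2 were called without vehicle SP mouse 4 (14.7%) and 1 without G108 SP mouse 1 (25.4%). On TPM the library of G108 HP mouse 4 had the highest *Apob*, *Mttp*, *Tm6sf2*, *Apoa4*, *Apoa5*, *Apoe* and *Lipc* of its group. After scaling this held for *Apob*, *Mttp*, *Tm6sf2* and *Apoa4*, but not for *Apoa5* and *Lipc*, and its *Apoe* was the lowest of the group. A test of any difference among the 4 groups called *Tm6sf2*, *Apoa1*, *Apoa5* and *Apoe* on TPM, against 60.8% of all genes. It called 0 of the 9 after scaling, against 2.78% of all genes, and voom called 0. There, 1 member and 1575 of the 11839 genes had an unadjusted p under 0.05.

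**Figure D5:**
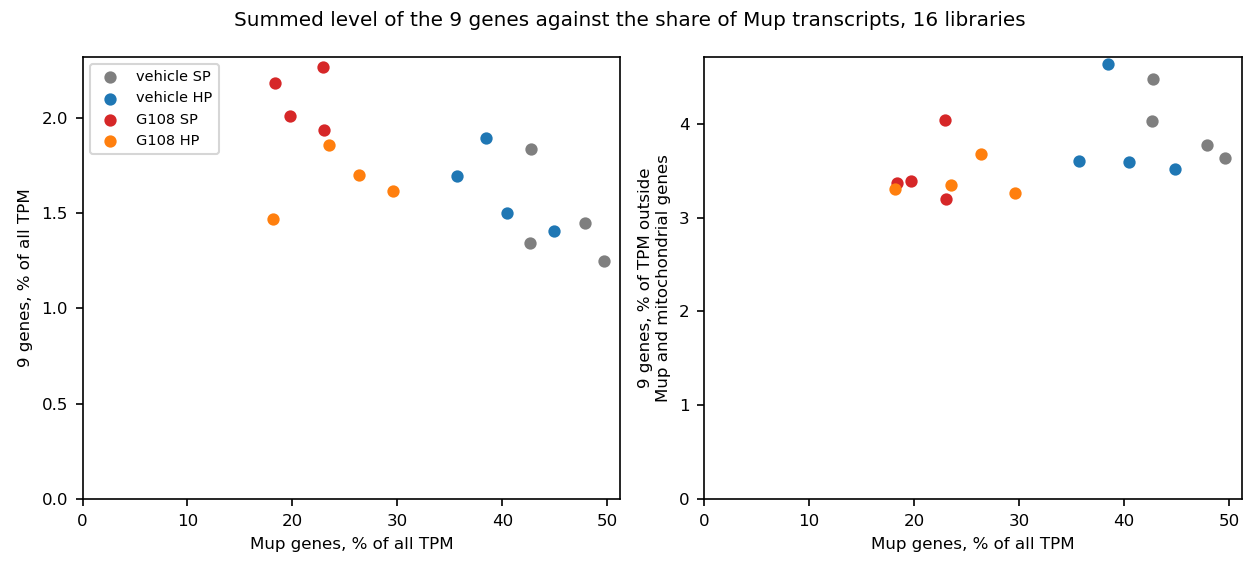
Summed level of the 9 genes as a percentage of all TPM (left) and of TPM outside Mup and mitochondrial genes (right) against the share of Mup genes (horizontal axes) in the 16 libraries, coloured by group. On the left the G108 SP libraries, with Mup shares of 18.3 to 23.0%, hold the highest sums, and on the right the order turns, with vehicle groups averaging 3.98 and 3.84% and G108 groups 3.50 and 3.40%.

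Summed over the 9 genes, the members took 1.47 ± 0.26% of TPM in vehicle SP, 1.62 ± 0.22% in vehicle HP, 2.10 ± 0.15% in G108 SP and 1.66 ± 0.16% in G108 HP (SD, n = 4). Of the TPM outside Mup and mitochondrial genes they took 3.98 ± 0.37%, 3.84 ± 0.54%, 3.50 ± 0.37% and 3.40 ± 0.19%. The share in G108 SP was thus highest on the first measure and below both vehicle means on the second. TPM of the members followed the scaling factor of each library to unequal degrees, with r from 0.94 for *Apoa5* to 0.00 for *Apoc3* over the 16 libraries, and the members with r above 0.85 were *Apob*, *Mttp*, *Tm6sf2*, *Apoa5*, *Apoe* and *Lipc*. The factor itself differed between groups, so its part and that of G108 cannot be told apart on TPM. After scaling, r of the members with the factor ran from −0.78 for *Apoc3* to 0.52 for *Apob*. Scaled levels were therefore not free of it either, and its part in them was not tested.

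Other genes of the pathway were taken from lists by role, whose counts on SP stand beside 77% of all genes called higher and 0.608% called lower on TPM, and 1.33% higher and 1.39% lower after scaling. Of 16 genes of VLDL assembly and export tested, G108 on SP raised 11 on TPM and lowered 0, and after scaling it raised 0 and lowered 2, *Vmp1* and *Ces3a*. Of 10 other apolipoproteins tested 6 were higher on TPM, and after scaling 1, *Saa4*, was lower and 0 were higher. These 3 genes were named after their values were seen. HDL formation and remodelling had 5 of 6 higher on TPM and 0 in either direction after scaling. Lipase control had 3 of 5 higher on TPM and 0 after scaling. On HP none of these 4 lists held a called gene on either scale by limma. There, 0, 2, 0 and 1 genes in the order given had an unadjusted p under 0.05 on TPM. After scaling the numbers were 4, 1, 0 and 2. Of all 11839 genes, 1248 had such a p on TPM and 1233 after scaling, in the fit with mouse number as a block. Averaged over diets, 4, 1, 1 and 2 genes were called lower after scaling and 0 higher, against 2.95% and 2.86% of all genes. On TPM 4, 6, 2 and 1 were called higher in that average and 0 lower, against 61% and 1.01%. The list medians on SP were 0.57, 0.92, 0.72 and 0.27 on TPM and −0.11, 0.14, 0.05 and −0.28 after scaling, beside 0.60 and −0.01 for all genes.

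A few genes outside the set passed on both scales. Lipoprotein uptake had 6 of 8 genes higher on SP on TPM, close to the 77% of all genes, and 1 after scaling, which was *Sdc1*, the heparan sulphate proteoglycan that binds remnants. *Sdc1* rose on SP by a log2 of 2.13 on TPM (adjusted p = 6.66e-04) and 1.37 after scaling (adjusted p = 0.0118), and on HP its values were 0.74 and 0.62 with adjusted p of 0.440 and 0.385. Transcriptional regulators had 12 of 16 higher on TPM, again near 77%, and 2 after scaling. The list medians on SP were 0.88 and 0.73 on TPM and 0.19 and −0.01 after scaling. *Ppargc1a*, a coactivator induced by cAMP in fasting liver, rose on SP by 1.38 on TPM and 0.89 after scaling (adjusted p = 8.10e-05 and 0.00274) and on HP by 0.73 and 0.66 (adjusted p = 0.0338 and 0.0337). *Rora*, a nuclear receptor, rose on SP by 0.96 and 0.41 (adjusted p = 4.62e-04 and 0.0454), and on HP its values were 0.21 and 0.12 (adjusted p = 0.688 and 0.748). *Saa4* and *Angptl4*, the latter an inhibitor of lipoprotein lipase, differed among the 4 groups on both scales. Scaled values of G108 over vehicle were −0.72 on SP and −0.51 on HP for *Saa4* (adjusted p = 0.0152 and 0.129), and −0.77 and −0.82 for *Angptl4* (adjusted p = 0.0755 and 0.0901). On TPM the values were 0.05 on SP and −0.39 on HP for *Saa4* (adjusted p = 0.800 and 0.392), and −0.05 and −0.70 for *Angptl4* (adjusted p = 0.864 and 0.260), so the SP call of *Saa4* was made on the scaled values alone.

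The genes most like each member in scaled log2 level over the 16 libraries, as a description, set the members apart from each other. *Apob* was most like *Srpr* (r = 0.99), which encodes the receptor of the signal recognition particle, and then *Gm37539* and *Zmpste24*. *Mttp* was most like *Ces2e* (0.91), a carboxylesterase, *Gbe1* and *C2cd2*, and *Tm6sf2* was most like *Lmna* (0.91), *Zfpm1* and *Hip1r*. *Apoa1* was most like the ribosomal protein gene *Rpl27a* (0.92) and then *Klkb1*. *Apoc3* was most like *Apoa2* (0.98), another small apolipoprotein of HDL, then *Mxd3* and *Gm44364*, and *Apoe* was most like *Timm13* (0.90), *Sec61b* and *Ndufs5*. *Lipc* was most like *Cyp2e1* (0.91), *Mmd* and *Ugt2b36*. For *Apoa4* and *Apoa5* the first gene was the antisense neighbour, *Gm10680* (0.99) and *Gm47544* (0.93), followed by *Ube2l6* and *Sec22a* and by *9130401M01Rik* and *Cdc34*. No member's 3 nearest genes included another member, and all libraries share the groups and the base composition that can move such values.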

How the data were processed

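Liver RNA of 16 mice was sequenced with 1 library per mouse. The authors aligned reads to GRCm38 with HISAT2 2.0.5 after FastQC 0.11.8, assigned them to genes with featureCounts and deposited TPM, computed from counts and exon lengths, in 1 table of 16 columns. DESeq2 1.36.0 is named in the submitters' processing notes. The strand setting of the counting is not given in the sources used here. Symbols and coordinates came from the GENCODE annotation of GRCm38, matched by identifier (55141 of 55487).

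The 11839 genes averaging 1 TPM or more were tested on log2(TPM + 1) in limma 3.58.1 (R 4.3.3), with 1 mean per group, an intensity trend and Benjamini-Hochberg adjustment. Fold changes are on that scale and understate changes of low genes. The same fit was run after median-of-ratios scaling over 11591 genes. Depth was recovered from whole-read steps, since 98.8% of 139184 low values came within 0.02 reads of a whole number. Intervals are 95%. P-values set differences of group means against the spread between mice within groups, pooled over the 4 groups and moderated across genes. On simulated data with known changes the model was checked before use. No library duplicated another (at most 0.110% identical values).

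Members and lists were chosen with earlier results of these data known. Besides the 9 members, genes named are the 3 most like each member and pathway-list genes (cell-type marker lists left aside) called on both scales (up to 4 per contrast, G108 on SP, on HP or any difference). Of these, 1 gene most like *Apoa1* is not reported here. The average over diets, voom on recovered reads and the replicate block with scaling were added after the data were seen. Alternatives were pseudocount 0.1, no filter, a mean TPM of at least 5, scaling, TPM rescaled outside Mup and mitochondrial genes, mouse number as a block and each library left out.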

Additional observations from a re-analysis of the deposited data

Results flagged for a closer look

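Among 72 sets of 4 mice (9 genes, 4 groups, 2 scales), 3 held a mouse far from the other 3 by Dixon's criterion, and chance alone would give such a mouse in about 1 of 20 sets. *Tm6sf2* was 24.9 TPM in G108 HP mouse 4, against 15.3 to 16.4 TPM in the other mice of that group. *Apoc3* was 2365 TPM in G108 SP mouse 1, against 1645 to 1764 TPM in the others. *Lipc* was 51.8 scaled TPM in G108 SP mouse 1, against 41.1 to 42.2 in the others.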

How the results depend on the processing

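The 37 results recomputed with a pseudocount of 0.1, which were the counts, each member on SP and on HP, and 6 values of single members in the other contrasts, kept their direction and call. Without a filter, *Mttp* (adjusted p = 0.0662) and *Apoa1* (adjusted p = 0.0706) lost their SP calls, 37 genes were called on HP, 1 for HP over SP with vehicle, 1 for the interaction, and 2 members for any difference. At a mean TPM of at least 5, which tests fewer genes, 4479 genes were called on SP, 2 for HP over SP with G108 and 3779 for any difference.

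Scaling changed most. By median of ratios, 322 genes and 0 members were called on SP (158 genes higher, against 9113 on TPM), 329 genes and 0 members for any difference, and 1 member in the average over diets. Signs turned on SP for *Mttp* (−0.050), *Apoa1* (−0.35), *Apoa4* (−0.22), *Apoc3* (−0.66), *Apoe* (−0.14) and *Lipc* (−0.052), on HP for *Apoc3* (−0.080), and in the average for 8 of the 9, *Apoa1* (−0.31) among them. With TPM rescaled outside Mup and mitochondrial genes, 237 genes and 0 members were called on SP, 280 genes and 0 members for any difference, and 1 member in the average. Signs turned on SP for *Apoa1* (−0.29), *Apoa4* (−0.15), *Apoc3* (−0.59) and *Apoe* (−0.072), on HP for *Apoc3* (−0.16) and *Apoe* (−0.064), and in the average again for 8 of the 9, with *Apoa1* at −0.32. The cause was not tested beyond the shares of Mup and mitochondrial genes given above. Voom on recovered reads kept the call of each scaled result.

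Of 24 pairs with the same mouse number, 8 had a correlation of deviations over 0.1 (−0.58 to 0.53). Pairs with different numbers were not examined beside them, so this does not settle whether the numbers pair the samples. The main fit assumed no pairing. With mouse number as a replicate block, 71 genes were called on HP on TPM. After scaling 213 were called on SP, 35 on HP and 1 for HP over SP with vehicle, and 0 members in the average over diets, where *Tm6sf2* (0.41) had an adjusted p of 0.0668.

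With each library left out in turn, counts on TPM ran from 0 (vehicle HP mouse 4) to 209 genes (vehicle SP mouse 4) on HP. G108 HP mouse 4 decided the highest counts for HP over SP with G108 (0 to 5047 genes, 0 to 6 members), the interaction (0 to 5202 genes, 0 to 6 members) and any difference, which ran from 3010 genes and 1 member without G108 SP mouse 3 to 8013 genes and 6 members. The members called on SP ran from 5 to 7. After scaling the ranges were 158 (G108 SP mouse 3) to 471 genes (G108 SP mouse 1) on SP, 18 (vehicle HP mouse 4) to 214 (vehicle SP mouse 4) on HP, 0 to 2 for HP over SP with vehicle and 0 to 1 member in the average over diets. Uncalled log2 values that changed sign on HP were *Mttp* (−0.27 to 0.038), *Apoa5* (−0.20 to 0.048) and *Apoc3* (−0.11 to 0.24) on TPM, and *Apoc3* (−0.21 to 0.16) and *Apoe* (−0.030 to 0.11) after scaling. On SP they were *Mttp* (−0.17 to 0.054), *Apoa4* (−0.63 to 0.13) and *Lipc* (−0.13 to 0.024) after scaling, and for HP over SP with G108 *Apoa1* (−0.20 to 0.033). Among the single-member values refitted this way, which cover all 9 on SP and HP but at most 2 in each other contrast and none for HP over SP with vehicle, no other direction changed.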
